A study of Mus musculus with 4 samples.

Results

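The isolated CpG-poor windows of the mouse genome were examined in reduced representation bisulfite sequencing of embryonic stem (ES) cells. A window was a stretch of 1 kb that held at least 3 shared cytosines, which are cytosines of CpG sites with 10 or more calls in each of the 4 libraries. Windows of chromosomes 1 to 19 with 3 to 9 shared cytosines were called sparse, and windows with 20 or more were called dense. CpG-poor and CpG-dense here stand for few and many shared cytosines. No genome sequence was used, so the CpG content of the windows is not known. A sparse window was isolated if no dense window lay within 50 windows (50 kb) on either side. This rule uses coverage and position and no methylation level, and 29891 of the 121563 windows met it, which is 39.4% of the sparse autosomal windows.

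The study compared Naa10 knockout (KO) ES cells (2 libraries) with wild-type (WT) ES cells (2 libraries). Naa10 encodes the catalytic subunit of an N-terminal acetyltransferase and lies on the X chromosome, outside the windows described here. Cells of both genotypes were grown in N2B27 medium with LIF, the Mek inhibitor PD325901 and the Gsk3 inhibitor Chir99021, on irradiated mouse embryonic fibroblasts, and were then kept for 5 passages off the feeders before harvest. The labels name neither the allele nor the clone behind the KO, and do not say whether libraries of 1 genotype came from separate cultures, so a p-value here speaks only to variation among 4 libraries, part or all of which may be technical. Bisulfite calls carry no expression, and neither the cell type nor the absence of Naa10 was checked from them.

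In mammalian cells most CpG sites outside CpG islands are methylated, and methylation is laid down by Dnmt3a and Dnmt3b and copied at replication by Dnmt1 with its partner Uhrf1. CpG islands, the dense stretches at many promoters, are mostly kept free of it, and their flanks (shores) are often intermediate. CpG-poor sequence far from islands therefore makes up most of the methylated genome, and culture of mouse ES cells with Mek and Gsk3 inhibitors is known to lower its methylation. Reduced representation sequencing reads only sequence near sites of the enzyme MspI, so it samples CpG-poor sequence thinly. Whether the isolated windows lie in such sequence was not checked.

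The isolated windows held 152996 shared cytosines, which are at least 117545 CpG sites when neighbouring positions are taken as the 2 strands of a site. The median window spanned 120 bp from its first to its last shared cytosine, with 32 to 285 bp from the 5th to the 95th percentile. The median number of calls per window was 121 and 122 in KO replicates 1 and 2, and 134 and 116 in WT replicates 1 and 2. At single cytosines the median was 24 calls in each KO library, and 27 and 23 calls in the WT libraries. The whole libraries held 68929594 and 70594987 calls in KO, and 79540412 and 68586396 calls in WT. The median isolated window lay 128 windows from the nearest dense one, 10.8% lay more than 500 away, and the farthest lay 5979 away. Isolation was defined on shared cytosines. When windows with 20 or more cytosines of any depth in any library also counted as dense, 14795 (49.5%) of the 29891 stayed isolated. These had a mean level of 23.4% in KO and 82.7% in WT, and the other 15096 had 22.9% in KO and 78.2% in WT.

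Methylation of the isolated windows was far lower in KO than in WT. The level of a window is its methylated calls over all its calls, and each window weighed the same in a mean. KO replicates 1 and 2 had mean levels of 27.9% and 18.4%, against 80.4% in WT replicate 1 and 80.5% in WT replicate 2. Each KO library was below each WT library, and the WT libraries almost coincided while the KO libraries stood 9.51 points apart. The genotype means were 23.2% ± 6.72 in KO and 80.4% ± 0.0177 in WT (SD, n = 2 each), so KO minus WT was -57.3 points. The KO mean was 28.8% of the WT mean. Permuting the 4 library means (exact, two-sided) gave p = 0.333, and no smaller value can come from 2 against 2 libraries.

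Nearly every isolated window was lower in KO when tested by itself. By the quasi-likelihood test of edgeR, applied to the counts of methylated and unmethylated calls and fitted over all 121563 windows, 29026 of the 29891 isolated windows (97.1%) were lower by at least 10 points at a Benjamini-Hochberg adjusted p below 0.05. Of all windows 76.3% were called lower by the same rule. The share followed the WT level. Among windows with a WT mean of 20% or more, 99.8% of the isolated ones (28730 of 28786) and 99.7% of all windows were called lower. At the median the isolated windows differed by -60.4 points, with quartiles of -68.8 and -49.9, and 22355 of them (74.8%, against 53.2% of all windows) were called with a difference of -50 points or beyond. The higher KO library was below the lower WT library in 29595 isolated windows, which is 99.0% of them, against 89.0% of all windows.

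When each library was instead centred on its median log odds of methylation (limma on log2 odds), a KO minus WT shift of -4.47 was taken out. The median was taken over the 92090 windows with a mean level of 10 to 90%, and calls were counted over all windows. On this scale 3344 isolated windows (11.2%) lay below the shift and 3585 (11.99%) above it. Of all windows 5.66% lay below the shift and 33.2% above it. The mean WT level was 80.4% in the isolated windows and 59.2% in all windows. A window near 0% in WT can hardly fall by this shift, and the part of this in the counts was not tested.

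No isolated window was called higher in KO by edgeR, where 0.00247% of all windows were. None had a rise of 10 points even at an unadjusted p below 0.05 in edgeR, in limma or in Fisher's exact test on pooled counts. With no minimum difference the adjusted p of edgeR passed for 2 windows that were higher, that of limma for 11 and that of Fisher's test for 1. The KO mean exceeded the WT mean in 73 isolated windows (4.62% of all windows did so), whose median WT level was 0.246%, and the largest excess was 4.87 points.

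**Figure D1:**
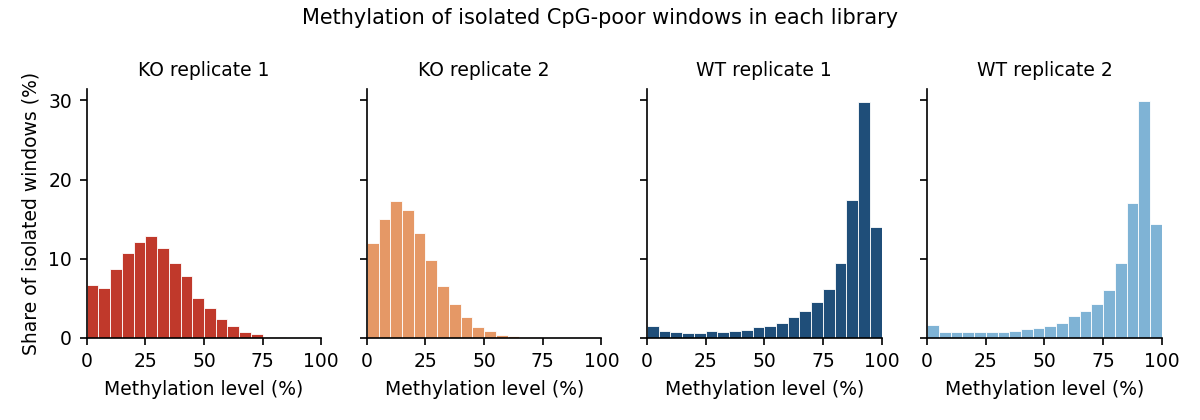
Share of the 29891 isolated windows (vertical axis, percent) by methylation level (horizontal axis, percent, bins of 5 points) in the 2 KO libraries and the 2 WT libraries. The KO libraries form broad humps with medians of 27.0% and 16.7%, while the WT libraries pile up near 90%, with medians of 88.6% and 88.7%.

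The isolated windows were spread differently in the 2 genotypes. In KO the quartiles were 16.7% and 38.2% in replicate 1, and 9.36% and 25.4% in replicate 2. In WT the levels crowded at the upper end, with quartiles of 76.7% and 93.2% in replicate 1 and 76.6% and 93.3% in replicate 2. A level of 80% or more was found in 25 windows of KO replicate 1 and 4 of KO replicate 2, against 21163 and 21211 windows of the WT libraries. At the other end, 32.5% and 60.5% of the windows were below 20% in the KO libraries, against 3.73% and 3.71% in the WT libraries. Levels of exactly 0 were few in every library, with 454 and 601 windows in KO and 98 and 127 in WT, so most isolated windows had some methylated calls in KO. No bisulfite conversion rate was estimated, so calls from unconverted cytosines are not told apart from methylated ones. Within a window the single cytosines ranged over a median of 30.0 and 23.1 points in the KO libraries and 16.7 and 17.6 points in the WT libraries, counting error included.

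The 2 KO libraries differed from each other across these windows. KO replicate 1 was above KO replicate 2 in 26706 of the 29891 windows (89.3%), whereas WT replicate 1 was above WT replicate 2 in 14695 (49.2%). The chi-square per degree of freedom between replicates was 5.90 in KO over 27228 windows and 1.31 in WT over 24673 windows, where 1 is counting error alone and windows with expected counts under 5 were left out. The level of KO replicate 2 was 65.9% of that of KO replicate 1 in the isolated windows and 68.1% in the other sparse windows.

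The other sparse windows, those with a dense window within 50 windows, were lower in both genotypes. These 45921 windows had mean levels of 23.0% and 15.6% in the KO libraries, against 68.2% in each WT library. The isolated windows exceeded them by 3.86 ± 1.54 points in KO and by 12.2 ± 0.0362 points in WT (SD, n = 2 each). The KO minus WT difference of this excess was -8.36 points, each KO library having the smaller excess, and permuting the 4 excesses (exact, two-sided) gave p = 0.333, again the lowest possible. As a share of the WT mean the KO level hardly differed between the sets. It was 28.8% in the isolated and 28.3% in the other sparse windows, a difference of 0.503 points that came from KO replicate 1 (1.04 points) and was absent from KO replicate 2 (-0.0359 points). The difference was -0.280 when dense windows were counted from any call.

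Levels in WT climbed with the distance to the nearest dense window while the share left in KO stayed level. Sparse windows 1 to 2 windows from a dense one, here called shores, had 12.6% ± 3.43 in KO and 43.5% ± 0.00808 in WT. At 3 to 10 windows the means were 19.5% in KO and 69.7% in WT, and at 11 to 50 windows 20.996% in KO and 74.0% in WT. Among the isolated windows they were 22.5% ± 6.34 in KO and 78.0% ± 0.0114 in WT at 51 to 100 windows, 23.6% in KO and 80.9% in WT beyond 100 and up to 200, 23.8% in KO and 82.8% in WT beyond 200 and up to 500, and 23.3% ± 7.09 in KO and 83.2% ± 0.0344 in WT beyond 500 (SD, n = 2 each). Most of the change with distance in WT thus lay within the first 10 windows, and the isolated classes differed by at most 5.19 points in WT. The KO level was 28.9%, 27.9% and 28.4% of the WT level in the 3 nearer classes and 28.8%, 29.1%, 28.7% and 28.1% in the 4 isolated ones. The exact permutation p was 0.333 in each of the 7 classes. KO replicate 2 held 68.8% of the level of KO replicate 1 at 3 to 10 windows and 64.6% beyond 500. The median depth also changed along this axis, from 28.5 calls per cytosine next to dense windows to 21.8 beyond 500, and its part in the levels was not tested.

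**Figure D2:**
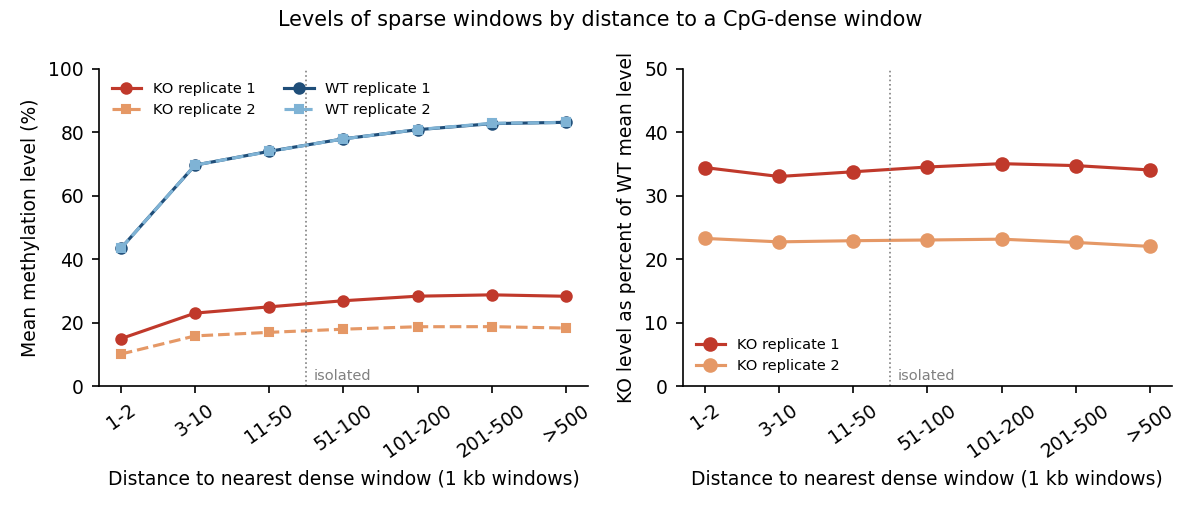
Mean level (left, percent) and KO level as a percent of the WT mean (right) of sparse windows, by distance to the nearest dense window in 1 kb windows, for each library. The dotted line marks the start of the isolated windows. The KO share of WT lies between 33.1% and 35.1% in KO replicate 1 and between 22.0% and 23.3% in KO replicate 2, while WT levels climb from 43.5% to 83.2% on average.

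The edge of the rule was not a step. Sparse windows 41 to 50 windows from a dense one, just outside, had 22.1% in KO and 76.4% in WT, and those 51 to 60 away, just inside, had 22.2% in KO and 77.6% in WT. Isolated windows with 9 shared cytosines had 21.9% in KO and 76.3% in WT, and windows with 10, just outside, had 22.9% in KO and 76.8% in WT.

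The share left in KO differed with the level in WT. Windows were binned by WT replicate 1 and read in the other 3 libraries. Isolated windows binned at 20 to 30% had 5.37% and 3.53% in the KO libraries and 25.7% in WT replicate 2. Those at 50 to 60% had 14.7% and 9.23% in the KO libraries and 56.5% in WT replicate 2. Those at 90 to 100%, the fullest bin with 13115 windows, had 36.5% and 24.6% in the KO libraries and 92.7% in WT replicate 2. The KO mean was therefore 17.3% of the WT replicate 2 level at 20 to 30%, 21.1% at 50 to 60% and 32.9% at 90 to 100%. The share did not climb throughout, being 21.9% at 0 to 10% and 18.2% at 10 to 20%.

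Within each bin the KO mean was a smaller share of WT replicate 2 in the isolated than in the other sparse windows. The gap was largest in the low bins. In the bin at 20 to 30% the KO mean was 17.3% of WT replicate 2 in the isolated windows (437) and 22.0% in the others (1520). At 30 to 40% the shares were 17.9% and 21.7%, and at 10 to 20% 18.2% and 23.9%. From 40% up the isolated windows were lower by 0.37 to 1.32 points. The isolated set had the lower share in all 10 bins for KO replicate 2, and in 8 of 10 for KO replicate 1, the exceptions being the bins at 50 to 60% and 70 to 80%. With the other sparse windows weighted to the bin shares of the isolated ones, the KO mean was 28.8% of WT replicate 2 in the isolated set and 29.6% in the others. WT replicate 1 was used for the bins, so the genotypes cannot be compared by permutation here and these shares are descriptions.

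**Figure D3:**
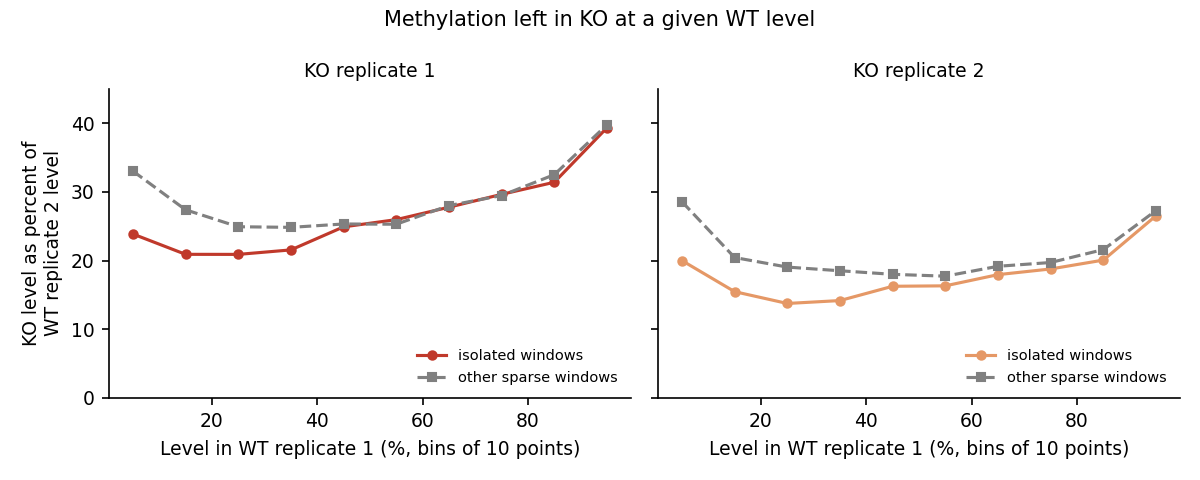
KO level as a percent of the WT replicate 2 level (vertical axis) for windows binned by their level in WT replicate 1 (horizontal axis, percent), in KO replicate 1 (left) and KO replicate 2 (right). Isolated windows (circles) lie below the other sparse windows (squares) in the low bins, and the isolated windows have their highest shares, 39.4% and 26.5%, at 90 to 100%. In the other sparse windows the highest share of KO replicate 2 is instead the 28.6% of the bin at 0 to 10%.

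Which isolated windows kept more methylation was shared by the 2 KO libraries. The 21163 isolated windows with 80% or more in WT replicate 1 were ranked by KO replicate 1 and read in the libraries not used for the ranking. In the lowest decile, where KO replicate 1 averaged 11.2%, KO replicate 2 had 8.30% and WT replicate 2 had 87.2%. In the highest decile, where KO replicate 1 averaged 59.97%, KO replicate 2 had 41.6% and WT replicate 2 had 93.9%. KO replicate 2 thus climbed in each of the 9 steps between deciles, over 33.3 points in all, while WT replicate 2 climbed over 6.75 points. In the highest decile the mean number of shared cytosines was 4.96, the median distance to a dense window 151 windows and the median depth 22.5 calls per cytosine, and in the lowest decile they were 4.66, 171 and 24.2. The deciles between had median distances of 123 to 142 windows, so both ends lay somewhat farther from dense windows. Across these windows the levels of KO replicates 1 and 2 had a Pearson correlation of 0.82 and those of WT replicates 1 and 2 one of 0.60, where the points share sequence and the range in WT is cut at 80%.

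**Figure D4:**
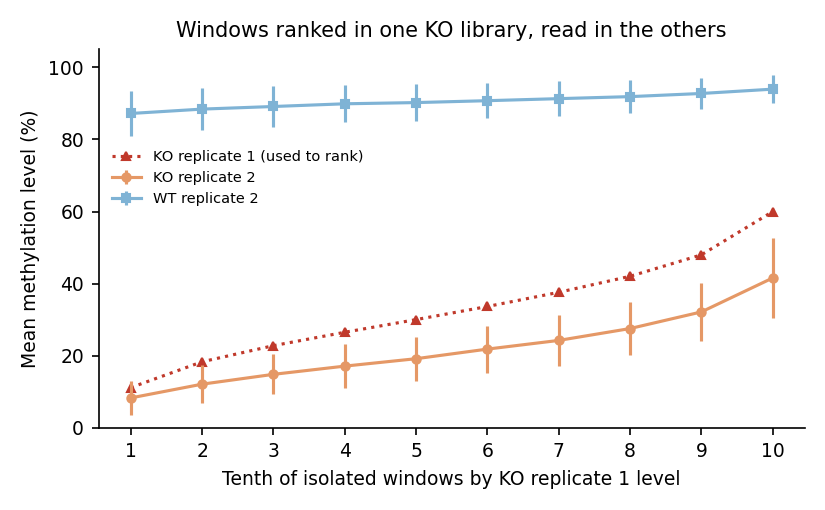
Mean level (vertical axis, percent) in each decile of the isolated windows with 80% or more in WT replicate 1, ranked by KO replicate 1. Bars are the SD over the windows of a decile. KO replicate 2 climbs from 8.30% to 41.6%, and WT replicate 2 from 87.2% to 93.9%.

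The 10 isolated windows farthest from any dense window, chosen by distance alone, lay between 18691001 and 19675000 of chromosome 15 (mm9). All 10 were called lower in KO, as were 97.1% of the isolated and 76.3% of all windows. Their differences ran from -23.0 to -85.5 points, and their KO levels differed widely. The farthest, 19082001 to 19083000, had 62.9% and 44.7% in KO, against 90% and 95% in WT (adjusted p 5.77e-06 in edgeR, 60 to 85 calls per library). Methylated calls outnumbered unmethylated ones there in KO replicate 1 but not in KO replicate 2. The window 18691001 to 18692000 had 5.88% and 6.40% in KO, against 93.7% and 89.5% in WT (adjusted p 7.00e-27). Its WT level was much like that of the farthest window, and its KO level was the lowest relative to WT of the 10. The window 18751001 to 18752000 had 5.38% and 3.95% in KO, against 28.6% and 26.8% in WT (adjusted p 2.34e-06), the lowest WT level of the group. The KO and WT levels did not overlap in any of the 10, nor did they in 99.0% of the isolated and 89.0% of all windows.

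**Figure D5:**
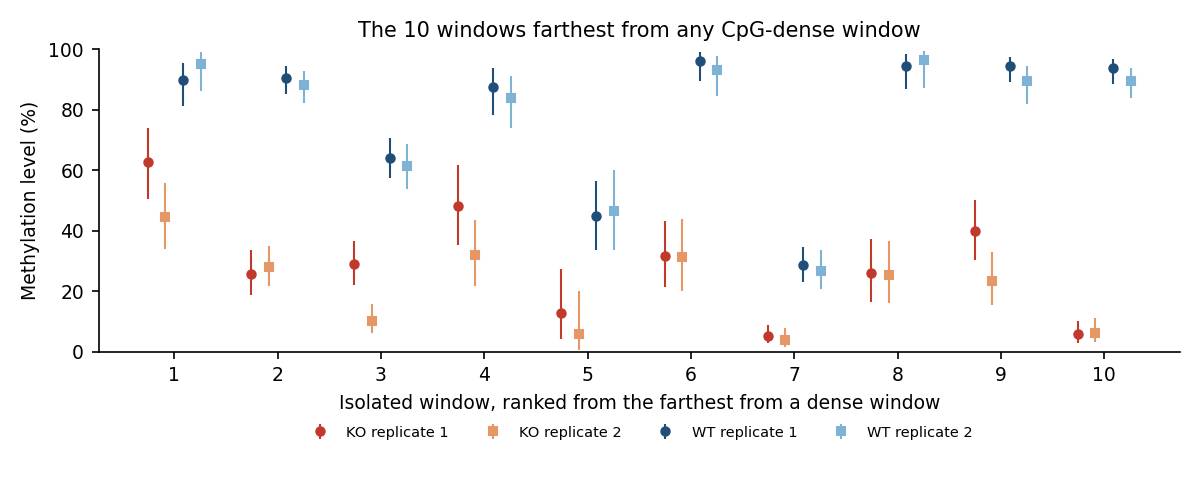
Methylation level (vertical axis, percent) of the 10 isolated windows farthest from a dense window, ranked from the farthest, in each library. Bars are exact (Clopper-Pearson) 95% binomial intervals and cover counting error only. KO points lie below WT points in each window, from 3.95% to 62.9% in KO and from 26.8% to 96.3% in WT.

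These windows belong to the longest stretch without a dense window, 12190 kb between 13104001 and 25294000 of chromosome 15, which held 109 isolated windows. Their mean level was 27.2% ± 8.29 in KO and 83.9% ± 0.315 in WT (SD, n = 2 each). Of the 109, 107 were called lower, against 97.1% of all isolated windows and 76.3% of all windows. The lowest, median and highest level were 1.25%, 30.4% and 82.4% in KO replicate 1 and 1.92%, 19.1% and 66.1% in KO replicate 2. In WT replicate 1 they were 25.7%, 89.8% and 100%, and in WT replicate 2 23.1%, 89.0% and 100%. Even within this single stretch the KO levels covered most of the range.

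The isolated windows fell into 3838 stretches free of dense windows, with a median of 5 isolated windows. The 3812 stretches with a dense window at both ends had a median length of 268 kb. In the 317 stretches with 20 or more, the stretch mean had a median of 23.3% in KO and 83.0% in WT, and the 10th to 90th percentiles were 18.5% to 28.5% in KO and 73.4% to 87.6% in WT. The following stretches were chosen after their values were seen. The highest KO mean was that of 21 isolated windows between 16084001 and 17686000 of chromosome 3, with 44.0% and 34.6% in KO, against 90.2% and 89.96% in WT. The KO mean there was 43.6% of the WT mean. All 21 windows were called lower, where 97.1% of all isolated windows and 76.3% of all windows were. The lowest was that of 20 isolated windows between 25553001 and 25772000 of chromosome 15, with 11.5% and 10.1% in KO, against 36.2% and 36.1% in WT. Low levels in KO went with low levels in WT there, and 13 of the 20 were called lower. On chromosome 12, 24 isolated windows between 12270001 and 12946000 had 15.8% and 11.3% in KO, against 57.7% and 59.7% in WT.

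Neighbouring isolated windows resembled each other only at short range. Windows side by side, which can share a restriction fragment, had a correlation of 0.40 between the KO replicate 1 level of one and the KO replicate 2 level of the other, and of 0.64 for the WT libraries (2316 pairs). At 2 to 5 windows apart the values were 0.16 in KO and 0.23 in WT (4470 pairs), and beyond 100 and up to 500 apart 0.0303 in KO and 0.0348 in WT. Windows side by side differed by 11.4 points in KO and 13.1 points in WT on average, and those over 500 and up to 1000 apart by 14.7 points in KO and 19.1 points in WT.

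Windows that kept the most methylation were rare. Both KO libraries had 50% or more in 476 isolated windows (1.59%) and in 322 of the other sparse windows (0.701%). Of all 121563 windows, 982 did so. These shares were not matched on the WT level. In WT replicate 1, 43.9% of the isolated windows lay at 90 to 100%, against 27.1% of the other sparse windows. Within that bin the KO mean was 32.9% of WT replicate 2 in the isolated windows and 33.5% in the others. The 5 isolated windows with the highest KO mean, named for that value, lay on chromosomes 6, 5, 14, 12 and 2. Small differences and weak or missing calls follow from this choice and are no separate result. The window 67544001 to 67545000 of chromosome 6 had 91.1% and 89.0% in KO, against 97.9% and 98.8% in WT, a difference of -8.30 points that missed the minimum of 10. The window 8019001 to 8020000 of chromosome 5 had 85.7% and 77.3% in KO, against 93.8% and 97.4% in WT, with 39 to 81 calls per library. Its adjusted p in edgeR was 0.0198 with all libraries, 0.113 without KO replicate 2, 0.0779 without WT replicate 1 and 0.176 without WT replicate 2. With a library left out its genotype has 1 library, and the spread in the fit then comes from the other genotype alone, here and for the windows that follow. The window 46887001 to 46888000 of chromosome 14 had 85.9% and 73.7% in KO, against 93.8% and 97.4% in WT, and its adjusted p was 0.000431, or 0.120 without WT replicate 2, and its difference was -9.67 points without KO replicate 2. The window 89334001 to 89335000 of chromosome 12 had 88.2% and 70.2% in KO, against 99.1% and 94.6% in WT, and its adjusted p was 0.000259, or 0.114 without WT replicate 1, and its difference was -8.65 points without KO replicate 2. The window 23659001 to 23660000 of chromosome 2 had 77.6% and 80.8% in KO, against 94.4% and 91.9% in WT. It was not called by edgeR (adjusted p 0.0534, and 0.0314 without KO replicate 2), but was called by limma (adjusted p 0.0120) and by Fisher's exact test on pooled counts (adjusted p 0.00882).

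At the opposite end stood highly methylated windows with next to no methylated call in KO. The 5 with the lowest KO mean among windows of 80% or more in WT replicate 1 lay on chromosomes 5, 9, 16, 10 and 1. They were named for that value. All were called lower, which follows from a choice on low KO and high WT levels and is no separate result. The window 52677001 to 52678000 of chromosome 5 had no methylated call among 50 and 46 calls in KO, where a limit of 3 calls is 6% and 6.52% and the exact 95% interval reaches 7.11% and 7.71%, against 80.0% and 76.3% in WT. The window 36487001 to 36488000 of chromosome 16 had 1.05% and 0% in KO (3 of the 155 calls of replicate 2 are 1.94%), against 90.3% and 77.2% in WT, with 155 to 206 calls per library. The window 64065001 to 64066000 of chromosome 1 had 2.17% and 0% in KO (3 of the 66 calls of replicate 2 are 4.55%), against 87.3% and 53.4% in WT, so the WT libraries themselves differed by 33.9 points. Choice on WT replicate 1 favours windows where that library is high.

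Isolated windows with little methylation in WT were few. Of the isolated windows 3.73% (1114) were below 20% in WT replicate 1, against 12.3% (5638) of the other sparse windows, and 38.8% of those 1 to 2 windows from a dense one. These 1114 had 1.85% and 1.43% in KO, against 8.44% in WT replicate 2. The KO mean was 20.2% of the WT mean of both WT libraries, and 27.3% in the 5638 others. Of the 1114 isolated windows 307 (27.6%) were called lower, and of the 5638 others 1030 (18.3%). Among all windows, at any WT level, 76.3% were. The isolated ones had the higher WT mean, 8.12% against 6.56%. WT replicate 1, used for the choice, enters these calls and shares. Unconverted cytosines, whose rate was not estimated, can enter them as well. The window 7387001 to 7388000 of chromosome 1, with 9 shared cytosines, had 0 methylated calls of 144 and 153 in KO and of 171 and 126 in WT, where a limit of 3 calls is 2.08% and 1.96% in KO and 1.75% and 2.38% in WT. The exact 95% intervals reach 2.53% and 2.38% in KO and 2.13% and 2.89% in WT. It and 3 others of the 5 lowest by WT replicate 1 had no methylated call in any library, and the fifth had 0.800% in KO replicate 2 alone.

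The 865 isolated windows that were not called lower were mostly of this kind. A WT mean below 10% was found in 696 of them, 10 to 20% in 113, and 20% or more in 56. The last 56 had a median level of 23.4% in KO and 38.6% in WT and a median of 290 calls over the 4 libraries. The median was 622 calls in the 696 windows, 543 in the 113 and 598 in the 865 together, against 496 in all isolated windows. An adjusted p below 0.05 with a difference under 10 points was found for 372 of the 865, windows with a small rise included.

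The number of cytosines in a window made little difference. Isolated windows with 3 shared cytosines had 23.5% in KO and 81.4% in WT, those with 6 had 23.5% in KO and 80.9% in WT, and those with 9 had 21.9% in KO and 76.3% in WT. Over the 7 classes KO held 28.0% to 29.6% of the WT mean. Windows with no other measured window within 50 windows had 22.8% in KO and 83.3% in WT, and those with 6 or more had 22.7% in KO and 78.0% in WT. The KO share of WT was 27.4% in the 3212 windows without measured neighbours and 29.0% in the 10168 with 6 or more.

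Every autosome showed the same picture. Chromosome means of the isolated windows ran from 22.0% to 24.7% in KO and from 78.7% to 82.1% in WT. Of the isolated windows of a chromosome 95.5% to 97.8% were called lower, against 76.3% of all windows. The KO level was 27.4% (chromosome 5) to 30.8% (chromosome 3) of the WT level. Each of the 19 chromosomes had both KO means under both WT means, with an exact permutation p of 0.333. On chromosome 3 the isolated windows had 29.6% and 19.9% in KO, against 80.2% and 80.3% in WT. On chromosome 8 the depth differed between the genotypes, with 6.08% of the calls in isolated windows in KO and 7.02% in WT, while the levels there were 23.5% in KO and 82.1% in WT.

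Depth was not evenly spread over the isolated windows, and a few were very deep. The deepest, 20821001 to 20822000 of chromosome 2, held 38413 to 43556 calls per library and had 1.04% and 0.686% in KO, against 3.24% and 3.37% in WT. Next came 103599001 to 103600000 of chromosome 6, which had 35.7% and 27.2% in KO, against 81.3% and 81.6% in WT, and 70579001 to 70580000 of chromosome 3, which had 35.4% and 24.3% in KO, against 90.4% and 91.5% in WT. The window 9290001 to 9291000 of chromosome 19 had 9.46% and 4.73% in KO, against 78.6% and 76.1% in WT, and 44109001 to 44110000 of chromosome 14 had 10.8% and 6.34% in KO, against 73.7% and 69.6% in WT. With the deepest cytosines left out, the KO minus WT difference of this window on chromosome 14 was -25.07 points in place of -63.05, still called lower (adjusted p 2.32e-07 in edgeR). The windows named here on chromosomes 2, 3 and 19 then gave no value. The 44 isolated windows with 100 or more calls per cytosine averaged 26.3% in KO and 77.2% in WT, and the 2503 with 10 to 15 calls averaged 23.9% in KO and 81.0% in WT.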

How the data were processed

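Genomic DNA of 2 KO and 2 WT libraries was digested with MspI, bisulfite converted and size selected to 150 to 500 bp, per the labels' protocols. The authors deposited, for each cytosine, counts of methylated and unmethylated calls and a percent, which differs from the counts' own ratio by less than 0.0001. The submitters' processing notes name Trim Galore, Bismark 0.10.1 and mm9. Whether duplicate reads or low-quality calls were removed is not stated there, so intervals cover counting error only. Coordinates are 1-based in mm9. No annotation or genome of mm9 was used, so no gene or sequence is given.

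Windows of chromosomes 1 to 19, X and Y were fitted with edgeR 4.0.16 (R 4.3.3; 121180 of 121563 windows could be fitted, the rest got a p of 1), with a term for each library, a term for methylated calls and its interaction with genotype, and Benjamini-Hochberg adjustment over all windows. limma 3.58.1 (0.5 added to each count) and Fisher's exact test were alternatives. Library means were compared with scipy 1.17.1. The test was tried on simulated windows with the same spread in every library and few changed windows, unlike these data. The search for isolated windows was checked on random windows. Neither trial bears on the results here. A level of 0 is given with a limit of 3 calls, in windows without methylated calls beside the exact (Clopper-Pearson) 95% interval. Named were the 10 farthest windows, 5 each of highest and lowest KO level, lowest WT replicate 1 level and depth, and any called higher, those of chromosome 18 left out. Members and rules were chosen with earlier results of these data known.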

Additional observations from a re-analysis of the deposited data

How the results depend on the processing

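The number of isolated windows called lower was 29026 as reported, 18008 of 18424 with an isolation distance of 100 windows, 14554 of 14795 with dense windows counted from any call, and 14939 of 15480 with members of 5 to 9 cytosines, where the sets themselves are smaller. Centred on the library-wide shift, 3344 were called below it and 3585 above it by limma (adjusted p below 0.05). With no minimum difference 2 windows were higher. The KO share of WT in isolated minus other sparse windows was 0.503 points, and -0.280 with dense windows counted from any call; the cause was not tested.

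Leaving out each library in turn, with the spread then taken from the genotype that kept 2 libraries, gave 28371 to 29077 windows called lower and 0 called higher, a KO minus WT difference of -62.0 to -52.5 points, a KO level of 22.9% to 34.7% of WT, and a gap in that share of -0.0359 to 1.04 points. With the replicate number as a block 29019 windows were called lower and 0 higher. Same-numbered libraries of the genotypes did not deviate together from window to window (correlation -0.00362 over the isolated windows, -0.00388 over all). A shift common to a whole library would not show in this correlation. The labels name no culture or day behind the numbers, so whether same-numbered libraries share more than a number is not known.

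The remaining alternatives (coverage minimums of 5 and 20, limma, Fisher's test, a minimum of 25 points, autosomes only, an isolation distance of 25, dense from 40 cytosines, a shifted grid, deepest cytosines left out, pooled calls, and, added after seeing the data, chromosome 8 left out) kept each of these results over all isolated windows that they were run on within 1.5 times for counts and 1 SD of the KO libraries for levels. Of the named windows, 65252001 to 65253000 of chromosome 2 turned from 0.400 to -0.171 points at a coverage minimum of 5, and 44109001 to 44110000 of chromosome 14 moved to -25.07 points with the deepest cytosines left out. Among the named windows limma and Fisher's test each called 1 more (23659001 to 23660000 of chromosome 2), no minimum difference 2 more, and a minimum of 25 points 4 fewer. Leaving out a library ended the call of 3 windows without KO replicate 2, 2 without WT replicate 1 and 2 without WT replicate 2, and added 1 without KO replicate 2.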

Other observations

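Isolated windows outside the rule behaved much like those inside it. On chromosome X, 1136 windows with 3 to 9 shared cytosines and no dense window within reach had 29.0% and 19.5% in the KO libraries, against 78.1% and 77.9% in the WT libraries. Of these 1136, 1037 (91.3%) were called lower, against 76.3% of all windows. Their KO level was 31.1% of the WT level, above the range of 27.4% to 30.8% over the autosomes. Isolated autosomal windows of 10 to 19 shared cytosines (6591) had 25.8% and 16.9% in KO, against 71.8% and 71.8% in WT. The sparsest of all, 21081 isolated autosomal windows with only 1 or 2 shared cytosines, had 28.2% and 18.6% in KO, against 84.5% and 84.4% in WT, the highest WT level of these 3 sets. Two-sided exact permutation tests of the library means gave p = 0.333 for each set, the lowest value that 4 libraries allow.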
